A study of Mus musculus with 15 samples.

Results

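The genes described here encode membrane transporters of sugars, amino acids and monocarboxylates. They were chosen by symbol as every gene of the Slc1, Slc2, Slc3, Slc5, Slc6, Slc7, Slc16, Slc36, Slc38 and Slc43 families listed in the deposited normalised table, which gave 69 of 16772 genes. By family these were 5 of Slc1, 9 of Slc2, 1 of Slc3, 6 of Slc5, 10 of Slc6, 10 of Slc7, 13 of Slc16, 2 of Slc36, 10 of Slc38 and 3 of Slc43. The count files hold 98 genes of these families, and the 29 that the normalised table leaves out had at most 39 reads in any library. They are not described further.

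RNA was sequenced from 15 libraries of mouse embryonic stem cells (ESCs), all cultured in N2B27 with PD03, Chiron and LIF, before and after loss of the transcription factor OCT4, which Pou5f1 encodes. CreER ESCs, of mixed 129SV and C57BL/6 background, are Oct4Fl/- and carry CreER under the CAG promoter. In these cells 4-OHT (500 nM) activates the recombinase, which deletes the floxed Pou5f1 allele that lies opposite a null allele. There were 2 CreER libraries at each of 0, 12, 18, 24 and 36 h. O4AID ESCs, of 129SV background, are Oct4-/- and derive from the ZHBT line, whose TetOFF Oct4 transgene was kept silent with doxycycline. They depend on an Oct4AID fusion, which CAG drives along with the Tir1 receptor, and the auxin IAA (500 µM) marks the fusion protein for degradation. The O4AID course had 0, 1.5, 6, 10 and 24 h with 1 library per time, so no O4AID difference has a replicate check and none is given a p-value. No library of cells given 4-OHT without CreER or IAA without Tir1 is among the 15, so an effect of either agent cannot be told apart from the loss of OCT4. For their qRT-PCR and western blot course of OCT4 in Oct4Fl/- ESCs, the authors describe 4-OHT with a change to serum medium with LIF. The paper does not say whether the sequenced CreER cells had that change, and an effect of medium was not tested.

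A cell takes up glucose mostly through the facilitative transporters of the Slc2 family, and lactate made from it leaves with a proton through members of the Slc16 family. Many amino acids enter by exchange: a light chain of the Slc7 family, held at the surface by the heavy chain CD98 (Slc3a2), brings an amino acid in as another goes out. Sodium-coupled carriers of the Slc1 and Slc38 families load the cell with the glutamine and other small neutral amino acids used in that exchange, Slc6 carriers bring in creatine, taurine, glycine and others with sodium and chloride, and some Slc36 and Slc38 members sit on the lysosome. Mouse ESCs are known for a high use of glucose and glutamine, and the trophectoderm, which ESCs approach when OCT4 is lost, is the tissue of the embryo that first takes nutrients from the mother.

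Each library held 21.7 to 30.8 M reads on genes in CreER and 40.5 to 48.7 M in O4AID (M, mega). Pou5f1 itself stood at 325 and 319 TMM CPM (reads per mega reads, with library sizes scaled by TMM) in the untreated CreER replicates and at 113 and 124 after 36 h of 4-OHT. In O4AID it was 745 before IAA and 628 at 24 h, where the agent acts on protein and not on RNA. The 9 trophectoderm markers summed to 269 to 279 CPM before 4-OHT and 553 to 602 at 36 h, with 9 of 9 higher. Their O4AID sum went from 26.4 to 97.7 CPM at 24 h, with 4 of 9 at least 2-fold higher and 0 lower. The 8 naive ESC markers summed to 1739 to 1777 CPM at 0 h and 1778 to 1870.3 at 36 h in CreER, where 2 of 8 were higher and 3 lower. They summed to 4925 and 1323 CPM in O4AID, where 8 of 8 were at least 2-fold lower. Fibroblast markers, which feeder cells would bring, summed to between 9.38 and 11.8 CPM in CreER and to 43.9 and 40.2 in O4AID. Primitive endoderm markers (7) summed to 14.6 to 16.7 and then 36.4 to 37.2 CPM in CreER, 2 of 6 tested higher and 1 lower. Their O4AID sum went from 10.5 to 45.3, with 3 of 7 at least 2-fold higher. The 4 primed epiblast markers fell in CreER, 4 of 4 lower, from 646 to 652 CPM down to 475 to 481, and were at 103 and 121 in O4AID. Neural markers (4) were at 157 to 159 and then 207 to 226 CPM in CreER, with 2 of 3 tested higher and 1 lower. Their O4AID sums were 26.7 and 18.9, with 1 marker at least 2-fold higher and 2 lower. The part of these cell type markers in the transporter results was not tested.

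Within 10 h of IAA 6 members had moved at least 2-fold in O4AID. They were Slc7a11, the light chain of the cystine and glutamate exchanger xCT, Slc2a1 (GLUT1) and Slc16a5 among those that were higher, and the leucine carrier Slc43a1 (LAT3), the sodium-glucose carrier Slc5a1 (SGLT1) and the inositol carrier Slc5a11 among those that were lower. For 4 of these the 250 bases before the RefSeq start are given, since they are the sequence that a factor acting close to the start would read, and motif matches are in capitals (RefSeq, GRCm38.p6, the strand of the gene, 5′ to 3′).
Slc7a11, chr3:50443614-50443863, minus strand: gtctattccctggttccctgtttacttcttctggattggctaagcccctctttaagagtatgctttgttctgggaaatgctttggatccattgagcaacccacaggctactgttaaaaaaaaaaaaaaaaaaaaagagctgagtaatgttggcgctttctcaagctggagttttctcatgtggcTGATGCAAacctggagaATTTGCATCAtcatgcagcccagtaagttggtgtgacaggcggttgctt
Slc43a1, chr2:84840073-84840322, plus strand: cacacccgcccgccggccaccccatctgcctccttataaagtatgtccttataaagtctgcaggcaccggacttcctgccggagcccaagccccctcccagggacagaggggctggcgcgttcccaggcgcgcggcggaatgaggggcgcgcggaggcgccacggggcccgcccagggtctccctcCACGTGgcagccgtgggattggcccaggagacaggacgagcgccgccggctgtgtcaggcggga
Slc2a1, chr4:119108495-119108744, plus strand: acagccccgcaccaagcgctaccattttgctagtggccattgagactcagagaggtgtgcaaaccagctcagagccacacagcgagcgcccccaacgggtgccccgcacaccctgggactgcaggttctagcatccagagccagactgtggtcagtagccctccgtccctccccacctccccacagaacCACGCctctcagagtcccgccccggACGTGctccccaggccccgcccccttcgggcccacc
Slc5a1, chr5:33103969-33104218, plus strand: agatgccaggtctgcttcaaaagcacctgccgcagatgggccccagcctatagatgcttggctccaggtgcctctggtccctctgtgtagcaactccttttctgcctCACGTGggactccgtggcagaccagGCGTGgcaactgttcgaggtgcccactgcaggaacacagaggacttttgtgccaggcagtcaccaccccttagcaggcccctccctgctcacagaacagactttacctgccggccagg

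The capitals mark matches, on both strands, to the octamer ATGCAAAT that POU factors such as OCT4 bind, to TGATGNAA, which ATF4 and C/EBP partners bind under amino acid shortage, to ACGTG, the core of hypoxia response elements, and to GCGTG, the core that dioxin receptor complexes bind. Slc7a11 had a TGATGNAA match on each strand, starting 66 and 47 bases before the start, and an octamer match on the minus strand that begins at 49 and overlaps the second of these. In Slc43a1 and Slc5a1 the letters CACGTG hold ACGTG on both strands, and Slc5a1 also had GCGTG. In Slc2a1 there was ACGTG at 36 bases before the start and GCGTG on the minus strand at 61. The upstream window of Slc5a11 held none of these letters, and Slc16a5 has no RefSeq window here. RefSeq starts are not always those of the counted genes. The Slc43a1 window lies inside the counted gene, which begins at chr2:84838850, and those of Slc2a1 and Slc5a11 run past the counted starts. Among the 32851 upstream windows of this length in the table, 1.60% held the octamer, 3.45% TGATGNAA, 16.6% ACGTG and 28.2% GCGTG. Of the 50 members with a window the counts were 1, 2, 14 and 22. A match is a description of the letters and not a sign that a factor sits there.

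In untreated CreER ESCs the transporter RNA was led by a few genes. Levels between genes are compared only as CPM per kb of exonic length, and on that scale Slc2a3 (GLUT3, a high-affinity glucose carrier) stood at 219 ± 3.27 (SD, n = 2), Slc2a1 at 165 ± 13.5, the glutamine carrier Slc38a2 (SNAT2) at 142 ± 4.50, the neutral amino acid carrier Slc38a4 (SNAT4) at 77.1 ± 1.09 and the heavy chain Slc3a2 at 62.6 ± 1.71. These 5 neighbours were separated by more than their spread. Next came Slc7a5 (LAT1), the main light chain for leucine, at 52.6 ± 2.30 and the lactate carrier Slc16a1 (MCT1) at 48.4 ± 0.431. Together the first 5 made up 63.5% and 63.4% of the summed level of all members in the untreated replicates and 72.3% and 72.2% at 36 h. Only 17 and 16 of the 69 members reached 10 CPM per kb.

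The untreated O4AID line shared the leading gene but not the order below it. Slc2a3 was at 351 CPM per kb, Slc38a4 at 103, Slc38a6 at 95.7, Slc3a2 at 67.8 and Slc2a1 at 53.8. Slc38a6, a family member whose substrate is not settled, was at 0.842 and 0.885 CPM per kb in the CreER replicates, which puts it 111-fold higher in O4AID. The carnitine carrier Slc16a9 was 46.3-fold higher there. In the other direction Slc7a7 (y+LAT1), an exchanger of cationic for neutral amino acids, was at 40.1 CPM per kb in CreER and 1.63 in O4AID, the arginine and lysine carrier Slc7a3 (CAT3) at 38.8 and 3.53, and Slc38a2 at 142 and 22.0. Of the 69 members, 35 were above both CreER replicates in O4AID, 27 below both and 7 between them. With 1 O4AID library and lines that differ in strain, genotype and sequencing depth, these are levels set side by side without a test. How many of all genes lie outside the CreER replicates was not counted. The 35 and 27 therefore cannot be read as a trait of the transporters. The plot of the untreated lines against each other shows both groups of outlying genes.

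**Figure D1:**
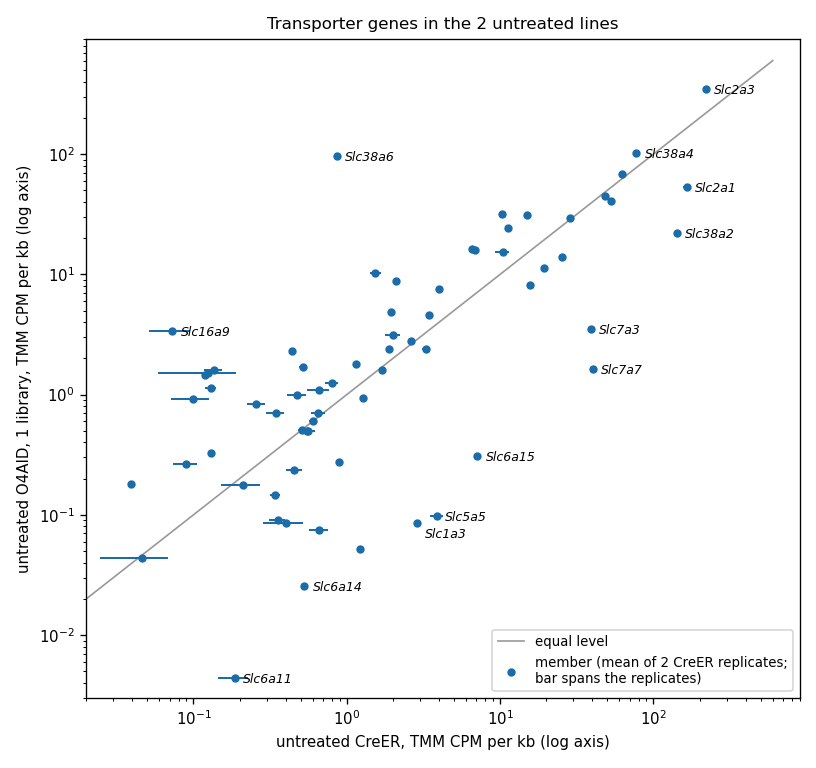
Level of each transporter gene in untreated CreER ESCs (x axis) and untreated O4AID ESCs (y axis), in TMM CPM per kb on log axes, with a point for the mean of the 2 CreER replicates, a bar spanning them, and a line of equal level. Slc38a6 and Slc16a9 lie far above the line, and Slc7a7, Slc7a3, Slc38a2, Slc5a5 and Slc1a3 below it, while the 2 members with 0 reads in O4AID (Slc5a8 and Slc6a17) are not drawn.

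The members together took a larger share of the reads at the last time of either course. The share was 0.553% and 0.535% at 0 h in CreER, lower at 12 h (0.528% and 0.522%), and 0.617% and 0.609% at 36 h. It was 0.572% before IAA and 0.734% after 24 h. In CreER the facilitative sugar transporters grew by more than the members' total, which went from 1067 and 1034 CPM per kb at 0 h to 1177 and 1182 at 36 h. The Slc2 family held 37.5% and 36.4% of the summed CPM per kb of all members at 0 h and 51.6% and 53.1% at 36 h, as its sum went from 399.9 and 376 to 608 and 628. In O4AID its share was 39.5% before IAA, 41.9% at 6 h, 41.0% at 10 h and 36.2% at 24 h, while its sum was 418, 514, 519 and 479 at these times, and the share of the Slc38 family went from 26.3% to 35.0%. The share of the Slc7 members in CreER was 15.2% in both untreated replicates and 9.36% and 9.50% at 36 h. The plot of summed levels by family shows these sums in every library.

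**Figure D2:**
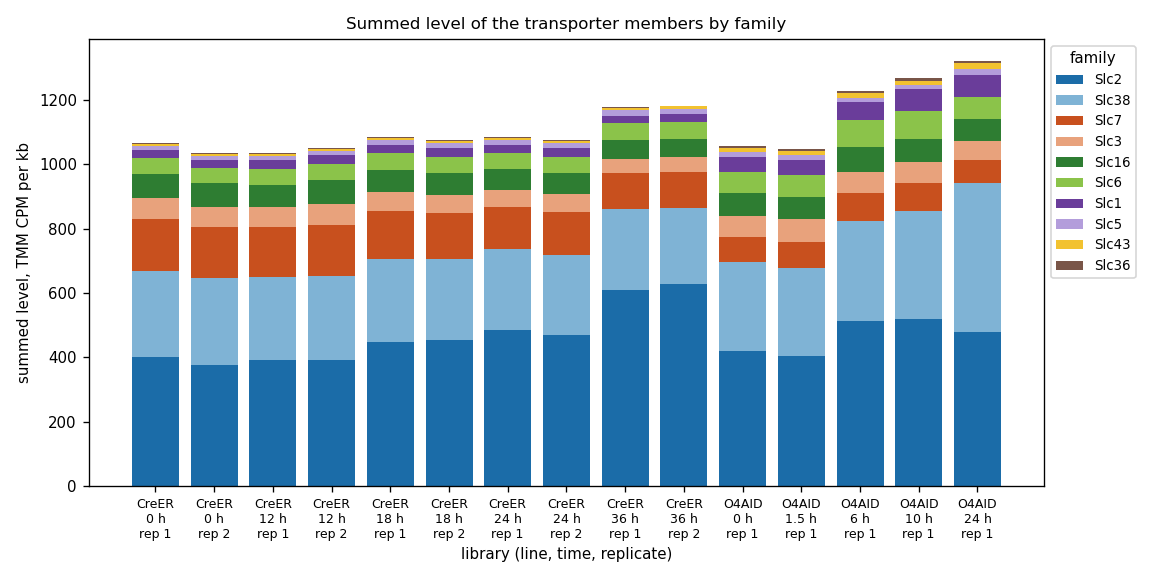
Summed TMM CPM per kb of the members of each family (stacked colours) in each of the 15 libraries (x axis: line, time, replicate). In CreER the Slc2 block grows from 399.9 and 376 at 0 h to 608 and 628 at 36 h, and in O4AID the Slc38 block from 278 to 463.

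Of the 69 members, 66 had enough reads to be tested in CreER with the quasi-likelihood method of edgeR, where a gene is called at a Benjamini-Hochberg adjusted p under 0.05 over all 18969 genes. A lower level in such bulk libraries cannot be told apart from fewer cells that express the gene. At 12 h only Slc7a3 was called, as lower, which is 1.52% of the members beside 0.395% of all genes in either direction and 0.137% lower. By 18 h 8 were higher and 8 lower, 24.2% beside 8.52% of all genes (4.73% higher and 3.79% lower). At 24 h it was 13 and 10, 34.8% beside 21.6% (11.0% higher and 10.6% lower), and at 36 h 20 and 16, 54.5% beside 36.6% (19.4% higher and 17.2% lower). Calls depend on how many reads a gene has. Among genes at a mean of at least 10 CPM the shares at 36 h were 23 of 29 members, 79.3%, beside 50.8% of all genes. The median log2 fold change of the tested members stayed near 0 at every time, between 0.02 and 0.13, so the calls were spread over both directions. The 12 h call was lost without either 12 h replicate. At 18 h the count was 9 with DESeq2, 9 without the second 0 h replicate and 8 without either 18 h replicate. With DESeq2 the 36 h count was 27, of which 12 were higher and 15 lower.

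In O4AID, where called means a 2-fold difference from the 0 h library in CPM plus 1 and nothing is tested, 63 members had a mean of at least 10 reads. None was past 2-fold at 1.5 h, beside 0.0859% of all genes (0.0229% higher and 0.0630% lower). At 6 h 2 were higher and 1 lower, 4.76% beside 0.939% (0.418% higher and 0.521% lower), and at 10 h 3 and 2, 7.94% beside 2.12% (1.10% higher and 1.01% lower). At 24 h 7 were higher and 4 lower, 17.5% beside 6.93% (4.05% higher and 2.87% lower). Among the 7, Slc6a14 passed the read minimum only through its reads at 24 h. Intervals given with O4AID values are 95% Wilson intervals of each share of reads carried to the ratio, and they cover counting error only. The counts depend on the pseudocount at low reads: at 10 h they were 8 with 0.1 and 2 with 5 in place of 1, and 3 when the 1.5 h library served as the reference. Scaling by total reads in place of TMM would move every O4AID value at 24 h up by 0.104 on the log2 scale.

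**Figure D3:**
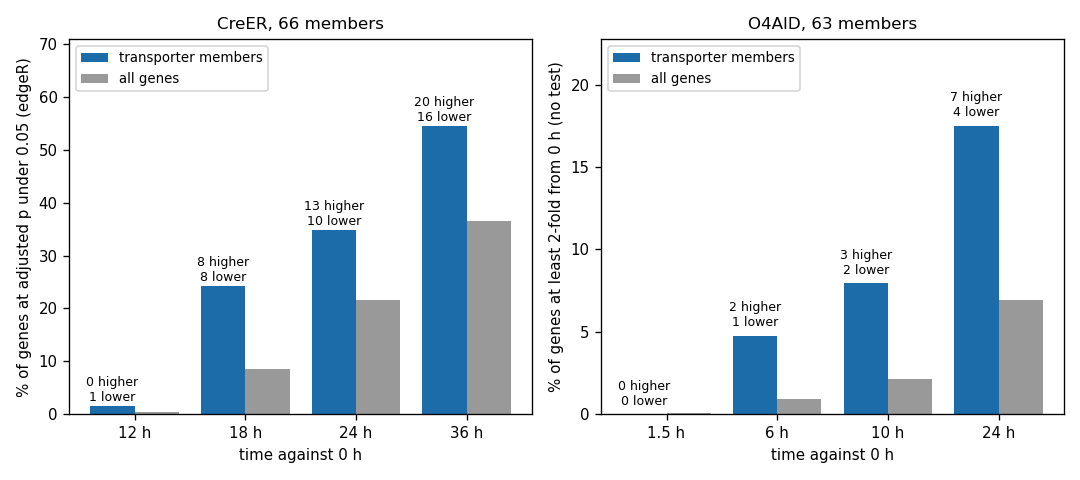
Share of genes called (y axes, in percent) at each time against 0 h (x axes) for the transporter members (blue, with the numbers higher and lower) and all genes (grey), by adjusted p under 0.05 in CreER (left) and by 2-fold difference without a test in O4AID (right). The members' bar is above that of all genes at every time but 1.5 h, and reaches 54.5% beside 36.6% at 36 h in CreER and 17.5% beside 6.93% at 24 h in O4AID.

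Of the facilitative sugar transporters, 4 of the 7 tested were called as higher in CreER at 36 h, 57.1% beside 19.4% of all genes. The other 3 were Slc2a4 (0.49, adjusted p 0.0644), Slc2a5 (-0.27, adjusted p 0.399) and Slc2a8 (0.02), and the family's median log2 fold change was 0.54, beside 0.01 for all genes. Slc2a3 (ENSMUSG00000003153, chr6:122727809-122801640) stood at 1606 and 1573 CPM at 0 h, 1567 and 1590.1 at 12 h, 1769.7 and 1824 at 18 h, 2015 and 1927 at 24 h and 2721 and 2739.5 at 36 h. Both replicates were above both untreated ones from 18 h on, and at 36 h the change was 0.80 on the log2 scale, with an SE of 0.0363 (edgeR adjusted p 8.82e-16). Slc2a1 (ENSMUSG00000028645, chr4:119108711-119137983) was at 612 and 545 CPM at 0 h, 601 and 596 at 12 h, 702 and 695 at 18 h, 711 and 698 at 24 h and 801 and 860.2 at 36 h. It too was above its untreated range from 18 h, and at 36 h it was 0.54 higher on the log2 scale (SE 0.0459, adjusted p 5.51e-10). Slc2a3 gained more than Slc2a1, so that the ratio of Slc2a1 to Slc2a3 per kb was 0.788 and 0.717 at 0 h and 0.608 and 0.649 at 36 h.

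In O4AID the pair behaved differently over time. In time order Slc2a1 was at 189, 185, 377, 395 and 231 CPM. Its level was high at 6 and 10 h and had come most of the way back by 24 h, with log2 changes of 0.99 (0.96 to 1.03), 1.06 (1.02 to 1.10) and 0.29 (0.25 to 0.33). Slc2a3 was at 2544, 2452, 2856, 2849 and 2905 CPM. It was 0.19 (0.18 to 0.20) higher at 24 h. The ratio of Slc2a1 to Slc2a3 per kb was 0.153 before IAA, 0.287 at 10 h and 0.165 at 24 h.

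Slc2a12 and Slc2a6, with under 1 CPM untreated, were the other members of the family called as higher. Slc2a12 (GLUT12) was at 0.513 and 0.499 CPM at 0 h, 0.543 and 0.285 at 12 h, 0.650 and 0.582 at 18 h, 0.956 and 0.754 at 24 h and 1.80 and 1.84 at 36 h. The 2 groups at 36 h and 0 h lay far apart, by 1.86 on the log2 scale (SE 0.299, adjusted p 1.48e-05). Its exons overlap 407 bases of Tbpl1 on the opposite strand, and without a stated strand setting their reads cannot be told apart. Tbpl1 itself was higher by 0.18. Slc2a6 (GLUT6) went from 0.434 and 0.399 CPM to 0.863 and 1.28 at 36 h, which is 1.35 higher (SE 0.374, adjusted p 0.0054). Without the second 36 h replicate it was 1.06 and not called (adjusted p 0.0854). In O4AID at 24 h both genes were under 2-fold from 0 h, Slc2a12 by 0.30 (0.11 to 0.50) and Slc2a6 by 0.55 (0.26 to 0.83). Slc2a8 (GLUT8), an intracellular carrier, was at 6.49 to 6.87 CPM at 0 h and 6.43 to 6.99 at 36 h in CreER, and went from 28.4 to 20.6 CPM in O4AID, by -0.45 (-0.56 to -0.33).

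The sodium-coupled Slc5 carriers have different cargoes and moved in different directions. At 36 h 3 of 6 were higher in CreER and 1 lower, 66.7% called beside 36.6% of all genes. Slc5a5, the sodium-iodide carrier known from the thyroid, was at 12.4 and 10.2 CPM at 0 h, 12.2 and 11.9 at 12 h, 16.2 and 15.8 at 18 h, 19.3 and 20.7 at 24 h and 25.4 and 28.0 at 36 h. Its replicates climbed clear of the untreated range from 18 h, and at 36 h it was 1.26 higher (SE 0.0876, adjusted p 5e-12). In O4AID it stayed between 0.252 and 0.555 CPM, 10 to 22 reads, at all 5 times. Slc5a8, a carrier of short monocarboxylates, went from 0.710 and 0.532 to 1.26 and 1.42 CPM (log2 1.12, SE 0.349, adjusted p 0.0123). That call was lost with DESeq2, without the second 0 h replicate (0.91) and without the second 36 h replicate (1.03). It had 0 reads in the untreated O4AID library, a count that allows up to 3, and 5 reads at 24 h.

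Both inositol carriers of the family were measured, and they went opposite ways. Slc5a11 (ENSMUSG00000030769, chr7:123214780-123273253) was at 6.12 and 4.89 CPM at 0 h in CreER, 4.51 and 4.23 at 12 h, 3.14 and 3.01 at 18 h, 3.03 and 3.39 at 24 h and 3.30 and 2.98 at 36 h. The drop was complete by 18 h, when the log2 fold change was -0.83 (SE 0.148, adjusted p 0.000487). It was -0.78 at 36 h, where the SE was 0.153 and the adjusted p 0.000193. In O4AID it was at 8.69, 6.92, 5.99, 3.56 and 1.82 CPM in time order, lower at each later time, and its log2 change reached -1.09 (-1.31 to -0.86) at 10 h and -1.78 (-2.01 to -1.54) at 24 h. Slc5a3, named here after its values were seen, was at 20.7 CPM in both untreated CreER replicates and at 37.7 and 32.6 at 36 h, higher by 0.78 (SE 0.0761, adjusted p 3.36e-09), and went from 26.2 to 45.3 CPM in O4AID, by 0.77 (0.67 to 0.87). It shares 159 bases of exon with Mrps6 on the same strand, which was not called at 36 h.

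Slc5a1 (ENSMUSG00000011034, chr5:33104219-33162870) was at 3.86, 4.14, 1.79, 1.36 and 1.04 CPM in the O4AID series, 174 to 48 reads. Its level was lower by 6 h and lowest at 24 h, with log2 changes of -0.80 (-1.07 to -0.52) at 6 h and -1.25 (-1.51 to -0.97) at 24 h. In CreER it was at 5.05 and 5.46 CPM at 0 h and 4.08 and 4.35 at 36 h, a log2 fold change of -0.31 that was not called (SE 0.134, adjusted p 0.0722). Slc5a6, which carries biotin and pantothenate, was between 14.2 and 16.7 CPM at every CreER time and went from 30.3 to 44.9 CPM in O4AID at 24 h. Its exons overlap Atraid on the opposite strand by 396 bases.

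Among the monocarboxylate transporters, the lactate carriers Slc16a1 and Slc16a3 fell in CreER, and a further lactate carrier, Slc16a8 (MCT3), was at 0.23 at 36 h and not called. Slc16a1 was at 213 and 215 CPM at 0 h, 203 and 216 at 12 h, 193 and 188 at 18 h, 168 and 171 at 24 h and 167 and 158 at 36 h. All 6 replicates from 18 h on were below the untreated ones, and the log2 fold change at 36 h was -0.38 (SE 0.0429, adjusted p 4.59e-08). Slc16a3 (MCT4), which exports lactate from glycolytic cells, was at 84.2 and 81.4 CPM at 0 h and 61.1 and 61.9 at 36 h, lower by -0.41 (SE 0.0531, adjusted p 4.74e-07). In O4AID Slc16a1 moved from 198 to 178 CPM at 24 h, by -0.15 (-0.19 to -0.11). Slc16a3 was at 43.5, 34.2, 44.5, 35.7 and 18.6 CPM in time order, with no steady course before 24 h, when it was lower by -1.19 (-1.30 to -1.08). At 36 h the family had 3 of 13 members higher and 3 lower, 46.2% called beside 36.6% of all genes.

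Slc16a5 was called as higher in CreER at 36 h, and Slc16a4 and Slc16a6 were not called. Slc16a5 (ENSMUSG00000045775, chr11:115462474-115474398) was at 2.59 CPM before IAA and at 4.26, 6.52, 8.50 and 5.09 CPM at 1.5, 6, 10 and 24 h. Its log2 change was 0.55 (0.29 to 0.80) at 1.5 h and reached 1.40 (1.17 to 1.63) at 10 h. In CreER it went from 1.10 and 1.43 to 2.04 and 2.41 CPM at 36 h, 0.80 on the log2 scale (SE 0.242, adjusted p 0.0102). DESeq2 did not call it, and without the first 0 h replicate it was 0.64 and without the second 36 h replicate 0.68, neither called. It lies opposite 104 bases of Gm11695, which had at most 78 reads in any library. Slc16a4 was at 4.21, 3.98, 4.53, 5.15 and 17.1 CPM in the O4AID series, flat up to 10 h and 1.80 (1.61 to 1.99) higher at 24 h. In CreER it lay between 2.13 and 3.66 CPM over all times and was called at none. Slc16a6, at 16.4 to 17.0 CPM untreated and 16.2 to 16.5 at 36 h, moved by under 0.2 in both lines, but 1052 of its exonic bases lie opposite Amz2.

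A further 2 Slc16 members were named after their values were seen. Slc16a9 went from 0.197 and 0.366 CPM to 0.745 and 0.614 (1.25, SE 0.424, adjusted p 0.0216), a call lost with DESeq2, without the first 0 h replicate (0.91) and without the first 36 h replicate (1.10). Slc16a12 went from 0.276 and 0.0998 CPM, 7 and 3 reads, to 0.628 and 0.803 (1.96, SE 0.535, adjusted p 0.00483), and without the second 0 h replicate it was 1.36 and not called.

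Of Slc3a2 and the Slc7 family, 11 genes tested, 1 was higher and 5 were lower in CreER at 36 h, with a median of -0.21. That is 54.5% called beside 36.6% of all genes. The cationic carrier Slc7a3 had the largest fall of the 66 members. Slc7a3 (ENSMUSG00000031297, chrX:101079210-101086020) was at 147 CPM in both untreated replicates, 122 and 123 at 12 h, 92.7 and 94.2 at 18 h, 74.2 and 74.7 at 24 h and 59.8 and 63.6 at 36 h. Replicates differed little and each time was below the one before, with log2 fold changes of -0.26 at 12 h (SE 0.0428, adjusted p 0.00373), then -0.65 and -0.98, and finally -1.24 (SE 0.0458, adjusted p 1.06e-17). In the O4AID series it was at 13.4, 13.8, 17.8, 22.8 and 11.8 CPM, so that it was 0.73 (0.59 to 0.87) higher at 10 h and -0.17 (-0.32 to -0.01) at 24 h. The related arginine carrier Slc7a1 (CAT1), at 76.8 and 74.5 CPM untreated and 71.4 and 73.4 at 36 h, was called at no CreER time, and in O4AID it was at 188 CPM before IAA and 143 at 24 h (-0.40, -0.44 to -0.35).

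The CD98 heavy chain and the main leucine light chain fell together in CreER. Slc3a2 was at 225 and 217 CPM at 0 h, 219 and 228 at 12 h, 207 and 203 at 18 h, 185 and 199.5 at 24 h and 159 and 159.7 at 36 h. Slc7a5 was at 201 and 189 CPM at 0 h, 197 and 206 at 12 h, 194 and 179.9 at 18 h, 166 and 171 at 24 h and 138 and 140.2 at 36 h. Both were below their untreated ranges at 24 and 36 h, with log2 fold changes at 36 h of -0.46 (SE 0.0438, adjusted p 2.81e-09) for Slc3a2 and -0.47 (SE 0.0456, adjusted p 3.14e-09) for Slc7a5. The ratio of Slc3a2 to the sum of its light chains per kb was 0.553 and 0.557 at 0 h and 0.519 and 0.516 at 36 h. In O4AID Slc3a2 went from 239 to 211 CPM at 24 h (-0.18, -0.22 to -0.14) and Slc7a5 from 152 to 116 (-0.39, -0.44 to -0.34).

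Other light chains of CreER went both ways at 36 h. Slc7a6 (-0.34) and Slc7a7 were called as lower, as Slc7a5 was, and Slc7a8 as higher. Slc7a8 (LAT2), a second leucine light chain, rose in CreER from 2.21 and 1.96 CPM to 3.44 and 3.01 at 18 h, 3.82 and 3.70 at 24 h and 4.90 and 4.63 at 36 h (log2 1.21, SE 0.164, adjusted p 1.01e-06), and was 0.53 (0.34 to 0.71) higher in O4AID at 24 h. Slc7a7 (ENSMUSG00000000958, chr14:54369442-54417780) was at 134 and 129.6 CPM at 0 h and 107 and 112 at 36 h in CreER (-0.26, SE 0.0440, adjusted p 3.65e-05). In O4AID it was at 5.36, 5.60, 7.93, 10.5 and 18.6 CPM, higher at each later time, and its log2 change at 24 h was 1.62 (1.44 to 1.80). Its exons lie opposite 232 bases of Oxa1l, which was itself at -0.01 in CreER at 36 h and 0.02 in O4AID at 24 h. Slc7a5 made up 73.4% of the light chains per kb in untreated O4AID and 58.3% at 24 h, while Slc7a7 went from 2.91% to 10.5%.

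Slc7a11 (ENSMUSG00000027737, chr3:49892526-50443614), whose upstream letters are given above, was the member with the highest change in O4AID at 6 and 10 h. In time order it was at 3.66, 4.65, 11.0, 15.4 and 9.86 CPM, from 165 reads to 610 at the peak. The log2 changes were 0.28 (0.04 to 0.52), 1.37 (1.15 to 1.58), 1.82 (1.61 to 2.02) and 1.22 (1.01 to 1.43). In CreER it stayed between 0.785 and 1.75 CPM, 20 to 44 reads at 0 and 36 h, with overlapping replicates at every time. Named after their values were seen, Slc7a6 (y+LAT2) fell from 89.7 and 88.3 CPM to 72.5 and 66.8 in CreER (-0.34, SE 0.0513, adjusted p 6.38e-06), and Slc7a4 was at 0.576 CPM, 26 reads, in untreated O4AID and 2.58 at 24 h (1.18, 0.89 to 1.44).

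The glutamate and neutral amino acid carriers of the Slc1 family were split in CreER, with 1 of 5 higher and 2 lower at 36 h. That is 60.0% called beside 36.6% of all genes. The 4 that passed the read minimum in O4AID had log2 changes between 0.48 and 0.97 at 24 h. Slc1a5 (ASCT2), a glutamine carrier, was at 62.6 CPM in both untreated CreER replicates and 48.8 and 52.4 at 36 h (-0.29, SE 0.0583, adjusted p 0.000214), and at 130.0, 134, 152, 173 and 182 CPM in the O4AID series, 0.48 (0.43 to 0.53) higher at 24 h. Slc1a4 (ASCT1) was higher in CreER at 18 and 24 h, by 0.21 and 0.18 (adjusted p 0.0419 and 0.0434), and not at 36 h (0.07, adjusted p 0.452). It went from 61.9 to 96.5 CPM at 10 h and 87.6 at 24 h in O4AID. Slc1a3 (GLAST), a glutamate carrier, fell from 25.1 and 23.9 CPM to 14.5 and 12.4 at 36 h (-0.84, SE 0.0814, adjusted p 3.41e-09), whereas in O4AID its 33 reads before IAA were 90 at 24 h (0.77, 0.47 to 1.05). Slc1a1 (EAAC1), named after its values were seen, went from 1.38 and 1.80 CPM to 2.67 and 2.69 (0.75, SE 0.212, adjusted p 0.00592). Its call was lost with DESeq2 and without the first 0 h replicate (0.59), and its O4AID level went from 5.18 to 11.1 CPM (0.97, 0.78 to 1.16).

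Of the 10 Slc6 members 3 were higher and 2 lower in CreER at 36 h. Beside these, 36.6% of all genes were called at that time, 19.4% higher and 17.2% lower. Slc6a14, a carrier of neutral and cationic amino acids, had the highest fold of the 66 members tested. It was at 1.74 and 1.90 CPM at 0 h, 2.01 and 2.16 at 12 h, 2.56 and 2.74 at 18 h, 3.15 and 4.22 at 24 h and 8.04 and 7.42 at 36 h (ENSMUSG00000031089, chrX:21714896-21742355). Both replicates lay above the untreated ones from 12 h on. It was first called at 24 h, when it was 1.01 higher on the log2 scale (SE 0.180, adjusted p 0.000156). By 36 h the fold change had reached 2.1 on that scale, for which the SE was 0.162 and the adjusted p 3.82e-11. In O4AID it had 4, 0, 2 and 7 reads up to 10 h and 128 at 24 h, when it was 1.79 (1.54 to 1.99) higher on the log2 scale of CPM plus 1, which understates changes of genes this low. Slc6a14 passed the read minimum only through the 24 h library. Slc6a8, the creatine carrier, rose from 53.5 and 53.0 CPM to 78.8 and 84.8 at 36 h in CreER (0.63, SE 0.0521, adjusted p 1.34e-10). In O4AID it was at 165, 174, 249, 258 and 209 CPM, highest at 10 h as Slc2a1 was.

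The neutral amino acid carrier Slc6a15 (B0AT2) fell in CreER, from 25.1 and 26.8 CPM at 0 h to 19.6 and 19.8 at 18 h and 12.8 and 11.3 at 36 h (-1.08, SE 0.0783, adjusted p 1.09e-11). In O4AID it held 33 to 59 reads throughout. The taurine carrier Slc6a6, at 253 and 231 CPM untreated and 246 and 244 at 36 h, and the glycine carrier Slc6a9 (GlyT1), at 3.00 and 3.69 and then 3.30 and 3.26, were called at no time. Slc6a9 was 0.54 (0.31 to 0.77) higher in O4AID at 24 h and lies opposite B4galt2 and other genes. Slc6a17, named after its values were seen, was called as higher at 36 h (0.73, adjusted p 0.0377) from 25 and 27 reads to 43 and 29, a call lost without either 0 h replicate (0.79 and 0.66), without the first 36 h replicate (0.56) and with DESeq2.

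Of the 14 Slc36, Slc38 and Slc43 members tested 5 were higher and 3 lower in CreER at 36 h, 57.1% called beside 36.6% of all genes. The 2 most abundant, both sodium-coupled carriers, went opposite ways. Slc38a2 (ENSMUSG00000022462, chr15:96687394-96699698) was at 644 and 673 CPM at 0 h, 617 and 618 at 12 h, 574 and 553 at 18 h, 501 and 507 at 24 h and 425 and 373 at 36 h. Slc38a4 (ENSMUSG00000022464, chr15:96994823-97055956) was at 308 and 302 CPM at 0 h, 293 and 298 at 12 h, 326 and 321 at 18 h, 366 and 349 at 24 h and 435 and 411 at 36 h. Slc38a2 was below its untreated replicates at all later times and Slc38a4 above them from 18 h, with log2 fold changes at 36 h of -0.71 (SE 0.0459, adjusted p 1.85e-12) and 0.49 (SE 0.0402, adjusted p 1.39e-10). The order of these neighbours on chromosome 15 per kb thereby turned, from 142 and 77.1 to 86.3 and 107 CPM per kb.

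In O4AID Slc38a4 was at 409, 388, 496, 632 and 1122 CPM, the largest gain in CPM of any member. Its log2 change was 0.63 (0.60 to 0.65) at 10 h and 1.45 (1.43 to 1.48) at 24 h. Slc38a2 was at 102, 147, 126, 119.5 and 106 CPM, highest at 1.5 h (0.53, 0.47 to 0.58) and near its starting level at 24 h (0.06). The glutamine carrier Slc38a1 (SNAT1) was at 213 and 215 CPM untreated and 196 and 184 at 36 h in CreER (-0.16, SE 0.0418, adjusted p 0.00409), a call lost without the second 36 h replicate (-0.12), and at 117, 118, 138, 147 and 137 CPM in O4AID. Slc38a6, so much higher in O4AID, was at 745, 702, 776, 706 and 756 CPM there and moved by no more than 0.09 in size, and in CreER it lay between 6.39 and 7.92 CPM and was called at no time.

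The leucine carriers Slc43a1 and Slc43a2 (LAT4) moved apart. Slc43a2 was at 16.6 and 17.6 CPM at 0 h, 21.4 and 19.9 at 12 h, 20.3 and 21.0 at 18 h, 24.0 and 24.8 at 24 h and 28.6 and 26.8 at 36 h (0.71, SE 0.0725, adjusted p 8.73e-09), and at 15.9, 17.2, 25.4, 30.8 and 35.9 CPM in the O4AID series (1.12, 1.00 to 1.24, at 24 h). It was higher at each later O4AID time. Slc43a1 (ENSMUSG00000027075, chr2:84838850-84863594) was at 15.8, 12.8, 5.99, 7.65 and 11.1 CPM in O4AID, lowest at 6 h (-1.27, -1.45 to -1.08) and part of the way back at 24 h (-0.47, -0.62 to -0.32). In CreER it went from 14.4 and 15.5 CPM to 9.77 and 12.3 at 36 h (-0.44, SE 0.102, adjusted p 0.00119), a call lost without the first 36 h replicate (-0.27). Of the lysosomal carriers, named after their values were seen, Slc38a9, which senses arginine for mTORC1, was called as higher at 36 h by 0.24 (adjusted p 0.0415) and lost that call under most alternatives. Slc38a7 was higher by 0.42 (adjusted p 0.0058, lost without the second 36 h replicate at 0.35), and Slc36a1 by 0.33 (adjusted p 0.00545, lost with DESeq2, without the second 0 h replicate at 0.26 and without the first 36 h replicate at 0.24). In O4AID at 24 h their log2 changes were 0.77, 0.30 and 0.39.

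**Figure D4:**
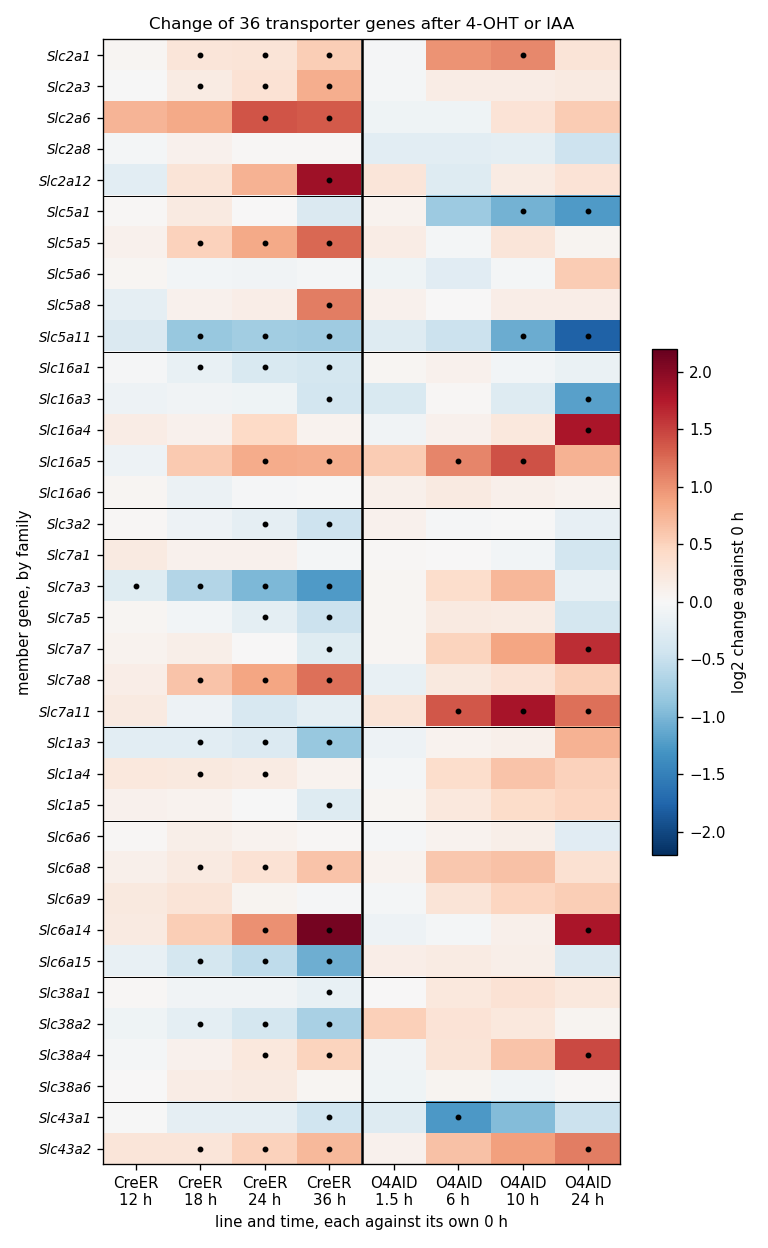
Log2 change against the line's own 0 h (colour, red higher and blue lower) of 36 members picked by the naming rule (rows, by family) at 4 CreER and 4 O4AID times (columns), with a dot where the gene was called, by edgeR adjusted p under 0.05 in CreER and by 2-fold difference without a test in O4AID. Slc7a3 has dots at all 4 CreER times, and Slc7a11 and Slc16a5 both have dots at 6 and 10 h of IAA.

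**Figure D5:**
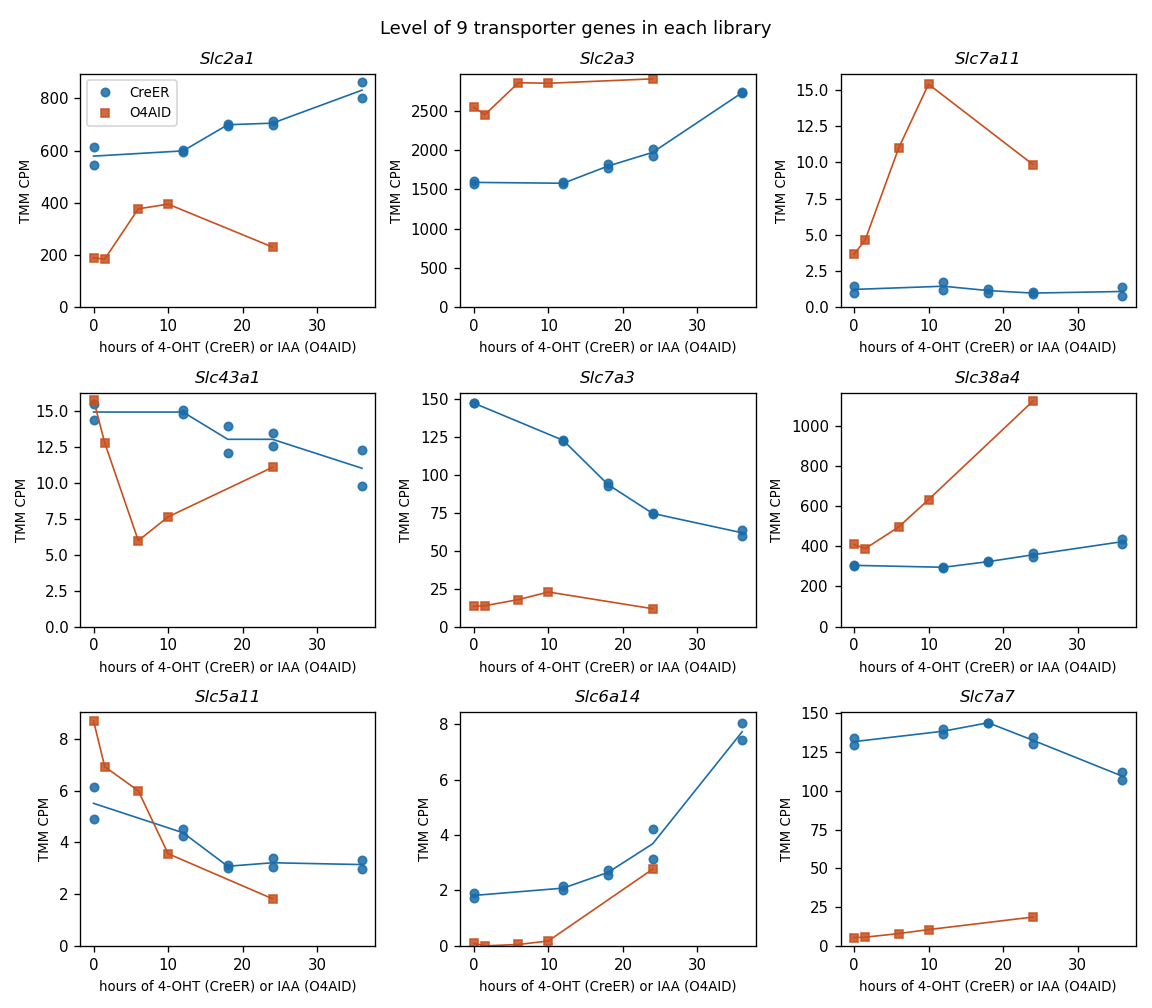
TMM CPM (y axes, from 0) of 9 members against hours of 4-OHT or IAA (x axes), a point for each library (blue circles CreER, orange squares O4AID) and lines through the means. Slc2a1 peaks at 395 CPM at 10 h of IAA, and Slc38a4 reaches 1122 CPM at 24 h of IAA.

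The comparisons of the 2 lines share no library, and their values can be set side by side. Of the 18 members higher in CreER at 36 h that passed the O4AID read minimum, 17 were above 0 in O4AID at 24 h, 94.4% beside 70.8% of all genes that were higher in CreER. The member below 0 was Slc16a9, at -0.07. Slc6a14, Slc38a4 and Slc43a2 were 2-fold higher there. Slc6a14, counted among the 17, passed the read minimum only through the 24 h library in which it was high. Of the 15 members lower in CreER, 9 were below 0 in O4AID and 6 above, 40.0% above beside 23.3% of all genes lower in CreER. Slc5a11 and Slc16a3 were at least 2-fold lower in O4AID, and Slc7a7 was 2-fold higher. These shares describe 1 O4AID series and were not tested.

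Other genes of these pathways were taken from lists of partners, enzymes and sensors. Of 11 partner and trafficking genes 8 were tested in CreER at 36 h, and 1 was higher and 4 lower, 62.5% beside 36.6% of all genes. Txnip, an arrestin that draws GLUT1 from the surface, was lower by -0.58 (SE 0.0528, adjusted p 8.37e-10), and Nptn, a chaperone of monocarboxylate transporters, higher by 0.33 (adjusted p 2.36e-05). In O4AID at 24 h Txnip was 2.18 (2.15 to 2.22) and its relative Arrdc4 1.41 (1.34 to 1.48) higher, among 3 of 8 past 2-fold. That share was 37.5% beside 6.93% of all genes. Txnip was already 0.86 (0.82 to 0.90) higher at 6 h, when Slc2a1 was near its highest.

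Of 16 genes of glucose use and lactate, 3 were higher and 10 lower in CreER at 36 h, 81.2% beside 36.6%, with a median of -0.14. Hk1 was higher by 1.52 (adjusted p 2.3e-16) and Ldhb by 0.86 (adjusted p 7.89e-14), whereas Hk2 was lower by -0.80 (adjusted p 5.2e-14) and Ldha by -0.58 (adjusted p 1.37e-11). The hexokinases, which trap glucose in the cell, and the lactate dehydrogenase subunits thus each had a member higher and another lower. In O4AID at 24 h the median was -0.62 beside -0.01 for all genes, with Pfkp at -1.59, Hk2 at -1.49, Ldha at -1.36 and Eno1 at -1.02 past 2-fold. These 4 were 25.0% of the list, beside 6.93% of all genes.

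Of 18 genes of the amino acid response, the program that ATF4 runs, 3 were higher and 4 lower in CreER at 36 h, a share close to the 36.6% of all genes called then. Cebpb was higher by 1.39 (adjusted p 0.000135), Ddit3 by 0.68 and Ddit4 by 0.50, and the serine and one-carbon enzymes Shmt2 and Mthfd2 were each lower by -0.24. In O4AID the median at 24 h was -0.62, and 1 gene was past 2-fold higher and 2 lower, 16.7% beside 6.93% of all genes. These were Cebpb at 1.00 (0.71 to 1.26), Cth at -1.56 and Phgdh at -1.03. At 1.5 h Chac1, a glutathione-degrading enzyme, was 1.03 (0.89 to 1.16) higher, 1 of the 18 past 2-fold, and Atf4 0.24 (0.20 to 0.27). None of the 18 was past 2-fold at 6 or 10 h. The list median was 0.07 at 1.5 h, 0.0007 at 6 h and -0.07 at 10 h. Asns, Psat1 and Cth were at -0.36, -0.27 and -0.79 at 10 h, whereas Ddit3 and Chac1 were at 0.74 and 0.75. Slc7a11 was 0.28 higher at 1.5 h and 1.82 at 10 h, and a link to this list was not tested. Of 14 genes of amino acid sensing by mTORC1, 1 was higher and 4 lower in CreER at 36 h, 35.7% called beside the same 36.6%. Past 2-fold in O4AID at 24 h were 2, both higher, 14.3% beside 6.93% of all genes.

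A further 21 members were called at 36 h in neither direction or could not be tested. Among those tested, log2 fold changes at 36 h in CreER lay between -0.51 and 0.81. Their O4AID values at 24 h lay between -0.56 and 0.78, none past 2-fold. The p-values rest on the spread between the 2 replicate libraries of a time, pooled over all CreER times and shared in part across genes. That spread may be technical, since nothing in the labels says that the replicates came from separate cultures.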

How the data were processed

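Ribosome-depleted RNA of 15 libraries was sequenced. The authors trimmed reads with Trim Galore 0.1.4, aligned them to GRCm38 with TopHat2 2.1.0 and counted them over Ensembl genes with featureCounts 1.5.1, and the deposited values are whole read counts per gene. Strand and multimapping settings were not given in the sources used here. The table that the authors normalised by TMM holds a signal per gene that equals the deposited counts at 1 factor per library for 99.99% of matched genes, and it was used only to pick the 69 members. The authors compared times with NOISeq-sim on merged replicates, which was not used here.

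Counts of the 10 CreER libraries were tested with edgeR 4.0.16 in R 4.3.3 (TMM, filterByExpr, robust quasi-likelihood fit over all times, prior count 0.125, Benjamini-Hochberg adjustment over 18969 genes), and SE is the absolute log2 fold change over the square root of F. The 5 O4AID libraries, 1 per time, were described by log2 ratios of TMM CPM plus 1 for genes with a mean of at least 10 counts, 17471 genes. DESeq2 1.42.0, other scalings, filters and pseudocounts, and leaving out each replicate were alternatives. Tables were handled with Python 3.11.15, pandas 2.3.3 and SciPy 1.17.1, and the fit was tested on simulated data. Sequences are from RefSeq (GRCm38.p6), which matched 50 of the 69 members.

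The rule for named genes took 15 core transporters of ESC metabolism, members called and at least 2-fold changed at any CreER time with a mean of at least 20 counts, members past 2-fold at any O4AID time with a mean of at least 50 counts, and the 3 highest members per kb of each role group in the untreated libraries. Of its members 36 are described, 10 more were named after their values were seen, and some results are not reported here. The members and lists were chosen with earlier results of these data known. Depth ranged from 21.7 to 30.8 M reads (CreER) and from 40.5 to 48.7 M reads (O4AID), and replicates of a time differed by 3.27 to 7.76 in chi-square per degree of freedom, above sampling noise. Same-numbered replicates of different times did not deviate together (correlations of -0.0209 to 0.0501), so the numbers were not taken as pairs.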

Additional observations from a re-analysis of the deposited data

Results flagged for a closer look

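For 7 members every CreER replicate at 24 h of 4-OHT lay on one side of the untreated replicates while the O4AID library at 24 h of IAA lay on the other side of its own start, with a counting interval that left out 0. The difference between the lines was not tested. How many of all genes meet the same rule was not counted, so the 7 cannot be read as a trait of the transporters. With 2 replicates a side, replicates can also lie apart without a change. The glutamate carrier Slc1a3 was at -0.30 on the log2 scale in CreER and 0.77 in O4AID. The vitamin carrier Slc5a6 was at -0.07 and 0.55, and the arginine carrier Slc7a1 at 0.09 and -0.40. The exchanger Slc7a6 was at -0.20 and 0.24. Of the glutamine carriers, Slc38a1 was at -0.08 and 0.23, Slc38a3 at 0.33 and -0.56, and Slc38a2 at -0.38 and 0.06. Against the 1.5 h library the O4AID value of Slc38a2 was -0.47, on the same side as CreER. In CreER at 24 h only Slc1a3, Slc7a6 and Slc38a2 of these passed the edgeR test.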

How the results depend on the processing

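The number of members called in CreER at 12 h was 2 with no filter and 0 to 2 on leaving out single replicates, and at 18 h it was 9 with DESeq2 and 8 to 18 on leaving out single replicates. At 24 h leaving out replicates gave 19 to 24 calls and at 36 h 30 to 37. With DESeq2 there were 19 calls at 24 h and 27 at 36 h, the latter 12 higher and 15 lower. Of all genes, 16.3% and 28.7% were called by DESeq2 at these times. In O4AID the members past 2-fold at 1.5 h were 1 with a pseudocount of 0.1, those at 6 h 0 with a pseudocount of 5, those at 10 h 8 with 0.1, 2 with 5 and 3 against the 1.5 h library, and those at 24 h 5 with a pseudocount of 5. The cause of these shifts was not tested. With the replicate number as a block the CreER calls were 1, 17, 24 and 36 in time order, within 1.5 times of the counts without the block.

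Some members changed sign. With total-count scaling the CreER log2 fold change at 36 h was -0.02 for Slc1a4, -0.06 for Slc2a8, -0.05 for Slc6a6, -0.01 for Slc16a4 and -0.03 for Slc38a6. Without the first 0 h replicate it was 0.02 for Slc5a6, -0.13 for Slc16a4 and 0.01 for Slc16a6. Without the second 0 h replicate it was -0.02 for Slc2a8, -0.03 for Slc6a6, 0.14 for Slc6a9 and 0.08 for Slc7a11. Without the first 36 h replicate it was 0.19 for Slc7a11 and -0.03 for Slc38a6, and without the second -0.04 for Slc2a8 and 0.04 for Slc5a6. Over all single replicates left out, Slc2a8 reached 0.09, Slc5a6 -0.15, Slc6a9 -0.16, Slc7a11 -0.67, Slc16a4 0.34 and Slc38a6 0.11 at the other end. In O4AID at 24 h, against the 1.5 h library, values were -0.10 for Slc5a5, -0.05 for Slc16a6, -0.47 for Slc38a2 and -0.0041 for Slc6a17, and Slc16a9 was 0.02 with total-count scaling. Genes under about 1 CPM are limited by their read numbers.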
